A study of Mus musculus with 9 samples.

Results

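Transcripts of 7 enzymes of cholesterol synthesis, Hmgcs1, Idi1, Fdps, Fdft1, Sqle, Cyp51 and Msmo1, were followed in mouse kidneys of 2 ages. The genes were taken by symbol, and all 7 were found among the 13081 genes of the table. All 7 also passed the filter on low values that left 12667 genes to be tested. The kidneys came from wild-type (wt) mice of 3 months (young, 4 libraries) and 16 months (old, 5 libraries), with no treatment in either group. The question put to these libraries was how transcripts change as mice without a mutation grow old. RNA of the whole kidney was reverse transcribed from the poly(A) tail, so that reads come from the ends of transcripts, and the values are normalised read counts per gene. In whole tissue, fewer cells of a type and less RNA per cell cannot be told apart.

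Mammalian cells build cholesterol from acetyl-CoA. In the mevalonate arm, Hmgcs1 joins acetoacetyl-CoA and acetyl-CoA to HMG-CoA, from which mevalonate is made. Mevalonate is phosphorylated and decarboxylated to an isoprene unit, whose isomer is made by Idi1, and Fdps condenses these units to farnesyl diphosphate. Farnesyl diphosphate stands at a branch point from which protein prenylation, ubiquinone and dolichol are also supplied. Fdft1 commits it to sterols by making squalene, Sqle oxidises squalene, and Cyp51 and Msmo1 take methyl groups off the sterol ring after lanosterol has formed. Genes of this pathway are classical targets of the SREBP transcription factors, which are carried by Scap and kept in the endoplasmic reticulum by Insig proteins when sterols are plentiful.

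SREBP proteins bind sterol regulatory elements near gene starts, usually beside CCAAT and GC boxes. The RefSeq promoter table (GRCm38.p6) held 4 of the 7 genes, and 30 bases of each are shown to place these letters in the genes that are compared. Capitals mark a sterol regulatory element letter match in Hmgcs1, a looser match in Cyp51, a looser match that overlaps CCAAT by shared letters in Msmo1, and a CCAAT box, read on the other strand as ATTGG, in Idi1. All are written along the strand of the gene, at chr13:119690203-119690232 (+) for Hmgcs1, chr5:4104767-4104796 (-) for Cyp51, chr8:64733652-64733681 (-) for Msmo1 and chr13:8885548-8885577 (+) for Idi1.
Hmgcs1: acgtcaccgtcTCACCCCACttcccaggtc
Cyp51: ataggccgagaTCACCTCAGcagcgcgtgg
Msmo1: gcacggaCCAATCACTGCACggcgaaggca
Idi1: ttgcctccagctgATTGGcgagcccgggca
The strict letters TCACNCCAC, searched on both strands from 250 bases before to 50 bases after the start, stood in the promoter of Hmgcs1, 137 bases before the start, and in 1.242% of 32851 promoter windows of the table. The looser letters TCACNNNAC or TCACNNNAG, which include the strict match, stood in 3 of the 4 promoters and in 24.56% of all windows. They began 88 bases before the start of Cyp51 and 92 bases before that of Msmo1. CCAAT was found in 4 of the 4 promoters and in 37.41% of all windows, and GGGCGG in 4 of the 4 and in 35.66%. No match of the strict or looser letters was found in the window of Idi1. The windows of Idi1 and Msmo1 lie inside the longer GENCODE gene models, which start further upstream than the RefSeq start used here.

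The table held 5093029 to 6355095 reads per young library and 4486406 to 5794960 per old library, so that a member was covered by 28 reads (Fdps) to 2145 reads (Hmgcs1) in a library. Mitochondrial genes took 27.0 to 29.7% of reads in young and 35.8 to 38.1% in old libraries. The titles of the young and old libraries carry different prefixes, so preparation and age cannot be told apart wherever the former follows the prefix. All 10 proximal tubule markers were present, at a summed level of 48718 to 51703 normalised counts in young and 47947 to 62771 in old libraries. Of 9 genes listed for the adrenal cortex, a steroid-making neighbour of the kidney, only Akr1c18 was in the table. It was read at 62.2 to 206 normalised counts in young and 0 to 3.73 in old libraries. Star, Cyp11a1, Cyp11b1 and Cyp21a1 were among those not in the table. The sum of 5 adipocyte markers, from a list of 7, spanned 271 to 1456 in young and 56.9 to 1114 in old libraries. It does not follow each marker. The means of Fabp4 (490 in young, 157 in old) and Cfd (121 and 103) were lower in old libraries, and those of Adipoq, Plin1 and Cidec were higher. The sum of 7 immune markers from a list of 8 was 1075 to 1254 in young and 1389 to 2023 in old libraries. Cd74 held the largest part of it, with means of 639 and 964. Of 6 immune markers tested, 4 rose by limma, while Csf1r and Lyz2 had adjusted p-values of 0.285 and 0.917. Transcripts of 4 Y-linked genes were present in every library and Xist was not in the table. The part of these markers in the results was not tested.

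Transcripts of the 7 genes did not move together with age. Idi1 fell 5.60-fold, Sqle fell 1.40-fold, Hmgcs1 rose 1.28-fold and Fdps rose 1.46-fold, whereas Fdft1, Cyp51 and Msmo1 did not pass the test. Over all genes tested, 59.7% were called by limma at an adjusted p-value under 0.05, with 29.2% called higher and 30.5% called lower in old kidneys. On counts rescaled after removal of the mitochondrial genes these shares were 35.4% and 25.1%. The 4 members called of 7 (57.1%, 2 higher and 2 lower) are therefore near the share over all genes, and no count of members is read as a result. The median log2 fold change of the 7 was -0.25, against -0.0027 over all genes tested. The groups did not overlap in 2 of the 7 genes, Idi1 and Fdps, beside 49% of all genes.

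**Figure D1:**
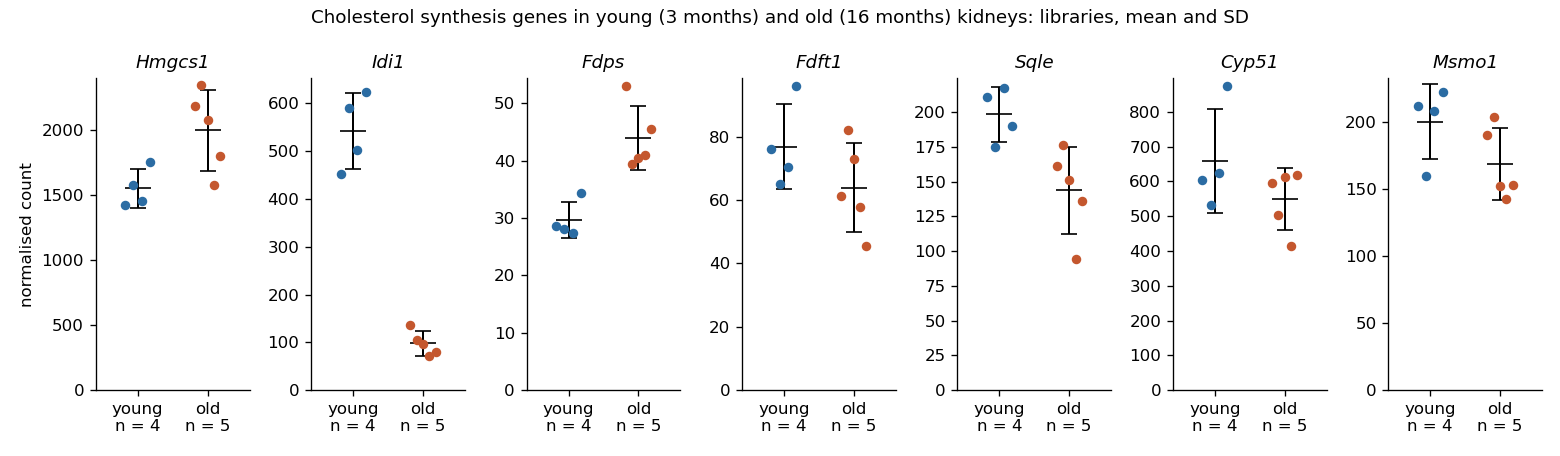
Normalised counts (y axis, linear from 0, with a scale of its own for each gene) of the 7 cholesterol synthesis genes in 4 young (blue) and 5 old (orange) libraries. Each point is a library, the horizontal bar is the mean and the error bar is the SD. Idi1 lies at 451 to 625 in young and at 71.8 to 137 in old libraries, while the other genes differ far less between the ages.

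Hmgcs1, the cytosolic HMG-CoA synthase, was read at 1421, 1577, 1450 and 1749 normalised counts in young libraries 1 to 4. It was read at 2181, 2346, 2075, 1574 and 1798 in old libraries 1 to 5. Old libraries 1, 2, 3 and 5 stood above every young library, whereas old library 4 lay level with young library 2, so that the groups overlapped. The mean was 1549 ± 149 (SD, n = 4) in young and 1995 ± 308 (SD, n = 5) in old kidneys. The log2 fold change was 0.35 ± 0.11 (SE, 95% interval 0.12 to 0.59), and the adjusted p-value by limma over all genes tested was 0.0111.

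Idi1, the isomerase that interconverts the isoprene units, was read at 451, 590, 503 and 625 normalised counts in young libraries 1 to 4. Old libraries 1 to 5 had 137, 104, 96.3, 71.8 and 79.6. Every young library stood far above every old library, the closest being young library 1 and old library 1. Young kidneys averaged 542 ± 79.3 (SD, n = 4) and old kidneys 97.7 ± 25.3 (SD, n = 5), and the log2 fold change was -2.49 ± 0.16 (SE, 95% interval -2.82 to -2.15, adjusted p = 3.43e-10 by limma). Under every alternative run it lay between -2.61 and -2.31. Of the 50-base sequences of the longest Idi1 transcript, 21.3% also occurred in 4 other gene models, and none of those in its last 500 bases did. The annotation gives 4 transcript ends for Idi1, and the other transcripts were not searched.

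Fdps, the farnesyl diphosphate synthase, was read at 28.7, 28.2, 27.5 and 34.4 normalised counts in young libraries 1 to 4. In old libraries 1 to 5 the values were 53.0, 39.4, 40.6, 41.0 and 45.6. Every old library stood above every young library, with a gap of a few counts between young library 4 and old library 2. The mean was 29.7 ± 3.19 (SD, n = 4) against 43.9 ± 5.62 (SD, n = 5), and the log2 fold change was 0.55 ± 0.19 (SE, 95% interval 0.14 to 0.95, adjusted p = 0.0205 by limma). Without young library 3 it was 0.51 with an adjusted p-value of 0.0545. The value is uncertain for another reason. In the GENCODE annotation Fdps lies on the same strand as Gm43738, a protein-coding gene model that is not in the table. Of its 50-base sequences, 86.4%, and 74.1% in the last 500 bases, also occur in 8 other gene models, so that reads may have been dropped or split.

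Fdft1, the squalene synthase, was read at 76.2, 65.1, 70.6 and 96.0 normalised counts in young libraries 1 to 4. The old libraries, 1 to 5, gave 61.3, 82.0, 73.0, 57.8 and 45.6. The groups overlapped broadly, young library 4 being the highest and old library 5 the lowest. The means were 77.0 ± 13.5 (SD, n = 4) and 64.0 ± 14.1 (SD, n = 5), with a log2 fold change of -0.28 and a 95% interval of -0.66 to 0.11 (adjusted p = 0.209 by limma). The last 500 bases of Fdft1 lie wholly opposite Ctsb, which is transcribed from the other strand, and the counting used strand.

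Sqle, the squalene epoxidase and a rate-limiting step of the sterol branch, was read at 211, 175, 218 and 190 normalised counts in young libraries 1 to 4. Old libraries 1 to 5 had 161, 176, 151, 94.2 and 136. The groups overlapped only in that old library 2 stood just above young library 2, and old library 4 was the lowest of all. The mean fell from 198 ± 19.6 (SD, n = 4) to 144 ± 31.4 (SD, n = 5), and the log2 fold change was -0.49 ± 0.16 (SE, 95% interval -0.82 to -0.16, adjusted p = 0.0118 by limma). Its call was lost on counts rescaled after removal of the mitochondrial genes, which shifted the median of all genes from -0.0027 to 0.14 on the log2 scale. Sqle then had a log2 fold change of -0.35 (adjusted p = 0.0721 by limma), while those of Hmgcs1, Idi1 and Fdps were 0.50, -2.34 and 0.69 and stayed called.

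Cyp51, the lanosterol demethylase, was read at 605, 532, 624 and 874 normalised counts in young libraries 1 to 4. It was read at 596, 504, 614, 415 and 617 in old libraries 1 to 5. Young library 4 stood far above all others, and the remaining young libraries overlapped with old libraries 1, 3 and 5. The means were 659 ± 149 (SD, n = 4) and 549 ± 88.1 (SD, n = 5), with a log2 fold change of -0.25 and a 95% interval of -0.55 to 0.04 (adjusted p = 0.128 by limma). Without young library 4 the log2 fold change was -0.11, and without young library 4 and old library 4 it was -0.01 (adjusted p = 0.943 by limma). Of the last 500 bases of Cyp51, 25.9% lie opposite Akap9 on the other strand.

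Msmo1, the methylsterol monooxygenase that acts after Cyp51, was read at 211, 159, 208 and 222 normalised counts in young libraries 1 to 4. In old libraries 1 to 5 the values were 190, 203, 152, 143 and 153. Young library 2 lay among the old libraries and old library 2 close to the young ones, so that the groups overlapped. The means were 200 ± 27.8 (SD, n = 4) and 168 ± 26.7 (SD, n = 5), with a log2 fold change of -0.25 and a 95% interval of -0.54 to 0.04 (adjusted p = 0.124 by limma). Without young library 2 the log2 fold change was -0.36 (adjusted p = 0.0437 by limma) and without old library 2 it was -0.32 (adjusted p = 0.0465 by limma).

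A ratio of 2 genes within a library does not depend on how the library was scaled, save through the 1 added to each count. The change with age was therefore also compared between members. For each of the 21 pairs, the difference between old and young in the log2 ratio of the normalised counts plus 1 was tested with a two-sided exact permutation test over the 9 libraries. The smallest p this design allows is 0.0159, and p-values were adjusted over the 21 pairs. Of these, 14 pairs passed, and in 13 of the 14 the ratios of the age groups did not overlap. With any 1 young library left out, where the smallest exact p is 0.0357, 0 pairs passed the exact test after adjustment and 13 or 14 did before it. With any 1 old library left out, 13 or 14 passed after adjustment. Over all pairs of genes tested, 58.6% had an exact p under 0.05 before adjustment, beside 66.7% of the member pairs, and 47% did not overlap, beside 61.9%, so the counts themselves are not read as a trait of the members. All 6 pairs with Idi1 passed, including that with Hmgcs1, 2 steps of the same arm that differed by 2.84 on the log2 scale (exact p = 0.0159, adjusted p = 0.0256). The ratio of Hmgcs1 to Idi1 went from 1.52 ± 0.10 (SD, n = 4) to 4.36 ± 0.21 (SD, n = 5) on the log2 scale. Idi1 also parted from Fdps, the enzyme that uses its product, by -3.03 with the same p-values.

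Hmgcs1 and Fdps, the genes that rose, did not pass against each other, at -0.19 on the log2 scale (exact p = 0.206, adjusted p = 0.271). Each passed against all 4 genes from squalene onward. Hmgcs1 gained 0.84 on Sqle, 0.63 on Fdft1 and 0.61 on Msmo1 (exact p = 0.0159, adjusted p = 0.0256 each), and 0.61 on Cyp51 with overlapping groups (exact p = 0.0317, adjusted p = 0.0476). Fdps gained 1.04 on Sqle, 0.82 on Fdft1 and 0.80 on both Cyp51 and Msmo1 (exact p = 0.0159, adjusted p = 0.0256 each). None of the 6 pairs among Fdft1, Sqle, Cyp51 and Msmo1 passed, by the exact test with or without adjustment. Their differences lay between -0.24 and 0.21 on the log2 scale, the smallest being that of Cyp51 and Msmo1 at -0.0006 (exact p = 1). The closest to passing was Sqle against Msmo1 at -0.24 (exact p = 0.0952).

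The members together took 0.0577, 0.0632, 0.0609 and 0.0766% of the reads of young libraries 1 to 4. They took 0.0639, 0.0657, 0.0663, 0.0443 and 0.0530% of the reads of old libraries 1 to 5. The highest share was in young library 4 and the lowest in old library 4, and the other libraries lay between them without order by age. The means, 0.0646 ± 0.0083% (SD, n = 4) and 0.0586 ± 0.0096% (SD, n = 5), did not differ beyond the spread between libraries (two-sided exact permutation p = 0.413, 0.550 adjusted over 4 such shares). Of the reads without mitochondrial genes the members took 0.0900 ± 0.0109% and 0.0936 ± 0.0148%, which turned the direction (exact p = 0.651, also 0.651 adjusted). The make-up of the members' reads did differ. The shares that set Hmgcs1 apart were not planned, and their p-values restate changes of single members given above. Hmgcs1 supplied 46.2 to 50.4% of the members' reads in young and 62.5 to 67.9% in old libraries. The means were 47.7 ± 1.91% (SD, n = 4) and 65.1 ± 1.94% (SD, n = 5), without overlap (exact p = 0.0159, adjusted p = 0.0317). The other 6 members took 0.0338 ± 0.0050% of all reads in young and 0.0204 ± 0.0032% in old kidneys (exact p = 0.0159, adjusted p = 0.0317). Idi1 alone supplied 66.4% of that difference, and the remaining 5 members took 0.0231 ± 0.0039% and 0.0186 ± 0.0028%, a difference that was not tested. These are shares of all reads, of which mitochondrial genes took more in old libraries, and they were not recomputed without those genes.

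The 13 other enzymes of the pathway that were examined were all tested, and 4 rose, 3 fell and 6 did not pass (53.8% called, beside 59.7% of all genes). Their median was -0.05 on the log2 scale. With the 7 members, 6 of 20 enzymes rose, 5 fell and 9 did not pass. Leaving out young library 4 reduced the 7 calls among the other enzymes to 4, since Pmvk, Tm7sf2 and Nsdhl no longer passed, and leaving out old library 4 as well also gave 4. Pmvk also lost its call without old library 1 or 5 or young library 2, at 0.50 to 0.58 on the log2 scale, and Tm7sf2 lost it without old library 2 (-0.76, adjusted p = 0.0513 by limma) or young library 3 (adjusted p = 0.0551).

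**Figure D2:**
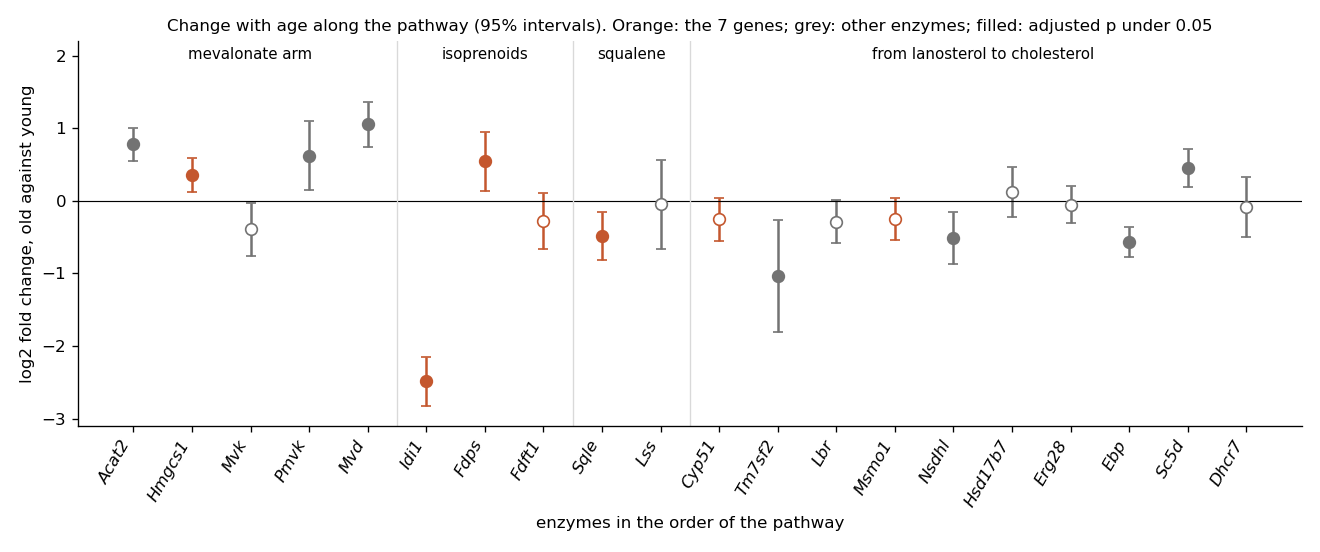
Log2 fold change of old against young kidneys (y axis) with its 95% interval for 20 enzymes placed in the order of the pathway (x axis), the 7 genes in orange and the other enzymes in grey. Filled points have an adjusted p-value under 0.05 by limma, and Idi1 at -2.49 stands apart from the other 19 enzymes, which lie between -1.03 and 1.06.

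In the mevalonate arm, which holds Hmgcs1, the acetoacetyl-CoA thiolase Acat2 rose from 235 ± 20.2 (SD, n = 4) to 405 ± 43.5 (SD, n = 5, log2 fold change 0.78, adjusted p = 6.43e-06 by limma). Of the kinases, Mvk had a log2 fold change of -0.39 (adjusted p = 0.0605) and Pmvk rose by 0.62 (adjusted p = 0.0243). Mvd, the decarboxylase that makes the substrate of Idi1, rose by 1.06 (adjusted p = 6.34e-06), from 199 to 265 in young to 396 to 674 in old libraries. Idi1 thus fell between Mvd and Fdps, neighbours that both rose.

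Past squalene, the lanosterol synthase Lss had a log2 fold change of -0.05 (adjusted p = 0.901 by limma), whose sign turned under some settings. The sterol reductase Tm7sf2 fell by 1.03 (adjusted p = 0.0220), on 4 to 35 reads a library and in an interval of -1.80 to -0.26, and it overlaps Vps51 on the same strand. Nsdhl, the dehydrogenase that works with Msmo1, fell by 0.51 (adjusted p = 0.0149), while Hsd17b7, the reductase of the same step, had a value of 0.13 (adjusted p = 0.520) and their scaffold Erg28 one of -0.05 (adjusted p = 0.723). Ebp, the sterol isomerase, fell by 0.56 (adjusted p = 8.23e-05), from 655 ± 24.6 (SD, n = 4) to 446 ± 47.6 (SD, n = 5). Sc5d, the desaturase after it, rose by 0.45 (adjusted p = 0.00463). The reductases Dhcr7 and Lbr had values of -0.09 (adjusted p = 0.732) and -0.29 (adjusted p = 0.0892).

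Within an age, the members varied together. Young library 4 was the highest young library in 6 of the 7 genes (85.7%), Sqle being the exception, beside 53.8% of the other enzymes and 26.5% of all genes tested. Old library 4 was the lowest old library in 5 of the 7 genes (71.4%), the exceptions being Fdps and Fdft1, beside 7.69% of the other enzymes and 17.2% of all genes tested. Old library 2 was the highest old library in 4 of the 7 (57.1%, 23.1% of all genes), and young library 2 was the lowest young library in 4 of the 7 (57.1%, 25.9% of all genes). For these libraries the shares of the other enzymes were 30.8% and 53.8%, the latter close to that of the members. These orders were noticed in the data and carry no test.

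The median deviation of the 7 genes from the mean of their age was -0.04, -0.18, -0.09 and 0.21 on the log2 scale in young libraries 1 to 4. It was 0.19, 0.25, 0.07, -0.33 and -0.12 in old libraries 1 to 5. Over all genes tested the same median lay between -0.0022 and 0.016 in every library, which the size factors bring near 0 by design.

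**Figure D3:**
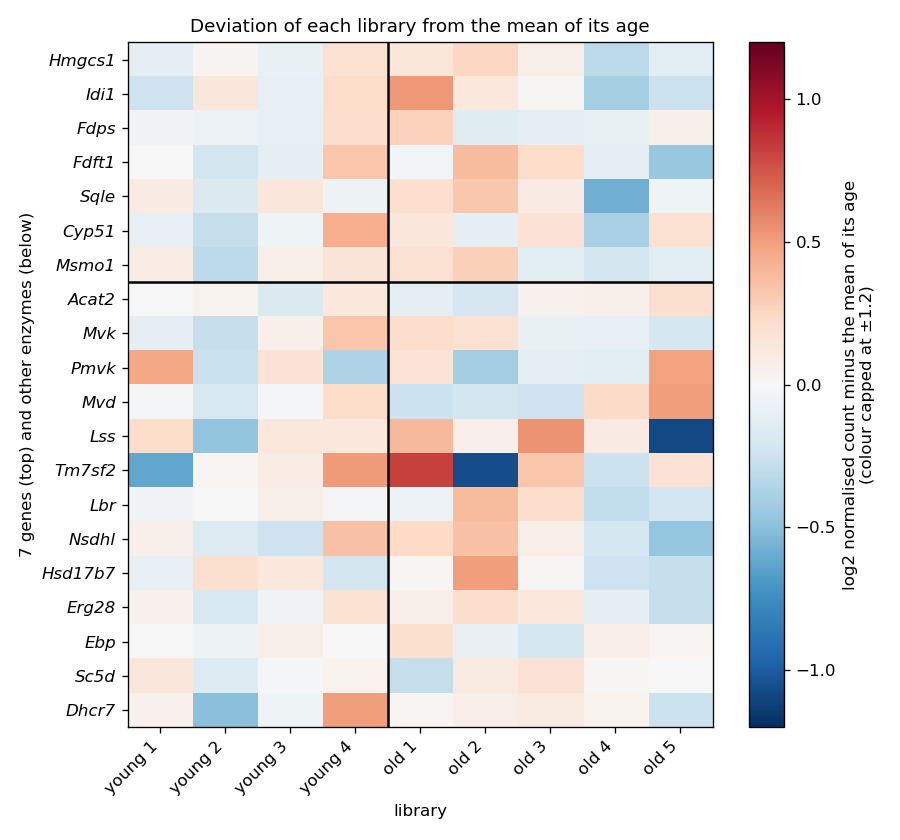
Deviation of each library (x axis, 4 young then 5 old) from the mean of its age in log2 normalised counts (colour, red above and blue below, capped at ±1.2) for the 7 genes above the horizontal line and the 13 other enzymes below it. Most of the 7 genes are red in young library 4 and blue in old library 4, with medians of 0.21 and -0.33.

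After the mean of each age was taken off, Pearson's r between members over the 9 libraries was positive in 20 of 21 pairs, with a median of 0.46 and a range of -0.03 to 0.85. The same median over all pairs of genes at least as abundant as the lowest member was 0.0019, with 50.2% of pairs positive. The values of a library share its RNA and its size factor, and these r values are a description of 9 libraries. Hmgcs1 and Idi1 had the highest r of all member pairs, 0.85, although they moved in opposite directions with age. Against the mean of the other members, r was 0.84 for Hmgcs1, 0.74 for Idi1, 0.71 for Msmo1, 0.64 for Sqle, 0.61 for Cyp51, 0.52 for Fdft1 and 0.40 for Fdps. Of the other enzymes, Nsdhl and Mvk (0.81 each), Erg28 (0.76), Dhcr7 (0.55) and Lbr (0.54) followed the mean of the members most closely, and Mvd (-0.38) and Acat2 (-0.32) ran furthest against it.

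Outside the gene lists, the genes most like the mean standardised profile of the members over all 9 libraries were Mfsd9, Kars, Tmx2, Emc3 and Gpaa1, with Pearson's r of 0.85 to 0.90 over 9 libraries. With the age means taken off they were Por (0.95), Cog1 (0.94), Dgcr2 (0.94), Zc3h18 (0.93) and Ruvbl1 (0.92), picked as the highest among all genes compared. Por encodes the reductase that passes electrons to microsomal cytochrome P450 enzymes, of which Cyp51 is one, and to Sqle. With age Por had a log2 fold change of -0.51 (adjusted p = 0.000762 by limma).

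Of 11 genes tested that control the SREBP pathway, 1 rose, 7 fell and 3 did not pass. Their median was -0.78 on the log2 scale. The share called was 72.7%, beside 59.7% of all genes, and the difference was not tested. Srebf1, which encodes the SREBP better known for fatty acid genes, was read at 111, 105, 160 and 86.0 normalised counts in young libraries 1 to 4. Old libraries 1 to 5 had 22.4, 35.0, 14.2, 8.40 and 20.2. The groups were far apart, and the log2 fold change was -2.57 ± 0.30 (SE, adjusted p = 7.25e-07 by limma).

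Srebf2, which encodes the SREBP best known for the cholesterol genes, was by contrast the only riser of the list. It was read at 202, 176, 189 and 259 in young libraries 1 to 4 and at 292, 312, 297, 302 and 359 in old libraries 1 to 5, without overlap (log2 fold change 0.61, adjusted p = 0.000298 by limma). In the annotation it overlaps Gm49502 on the same strand. Scap, the escort of the SREBPs, fell from 396 ± 14.0 (SD, n = 4) to 206 ± 30.4 (SD, n = 5), a log2 fold change of -0.95 (adjusted p = 1.34e-06 by limma).

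Of the retention proteins, Insig2 fell from 120 ± 7.25 (SD, n = 4) to 41.7 ± 4.67 (SD, n = 5), a log2 fold change of -1.50 (adjusted p = 1.40e-07 by limma), whereas Insig1 had a value of 0.19 (adjusted p = 0.289). Rnf145, an E3 ligase that acts on Scap, fell by 1.05 (adjusted p = 2.66e-06).

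**Figure D4:**
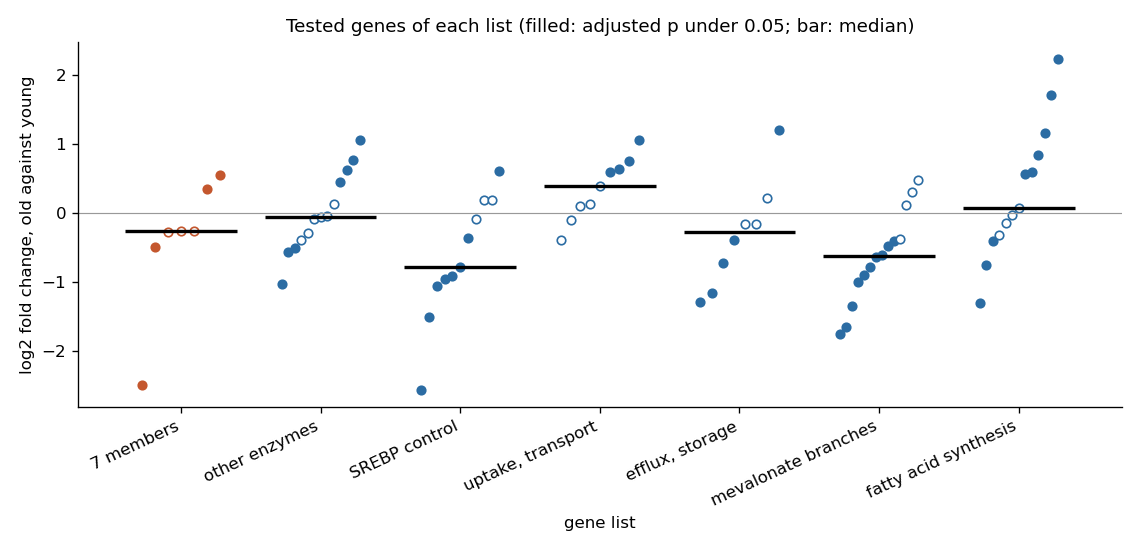
Log2 fold change of old against young kidneys (y axis) of each tested gene in the 7 cholesterol synthesis genes (orange) and 6 other lists (blue), sorted within a list, with filled points for an adjusted p-value under 0.05 by limma and a bar at the median. Medians run from -0.78 for SREBP control to 0.39 for uptake and transport, with -0.25 for the 7 genes.

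Of 9 genes for uptake and transport of cholesterol, 4 rose, 0 fell and 5 did not pass by limma (44.4% called, beside 59.7% of all genes), with a median of 0.39 on the log2 scale. The count of falls was also 0 at an unadjusted p-value under 0.05 and with edgeR or DESeq2. Npc1 and Npc2, which move cholesterol out of lysosomes, rose by 1.07 and 0.76 (adjusted p = 1.24e-05 and 1.15e-06), and the sterol carriers Stard4 and Stard3 rose by 0.64 and 0.60 (adjusted p = 0.000596 and 0.00244).

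The branches that use isoprenoid diphosphates of the pathway for prenylation, ubiquinone, dolichol and tRNA held 14 genes, of which 0 rose, 10 fell and 4 did not pass by limma, with a median of -0.62. The share called was 71.4%, beside 59.7% of all genes. At an unadjusted p-value under 0.05 the count of rises was 1, and with edgeR or DESeq2 it was 0. Icmt, which methylates prenylated proteins, fell by 1.75 (adjusted p = 3.21e-07), and Nus1, a subunit of the dolichol synthase, averaged 959 ± 60.8 (SD, n = 4) normalised counts in young and 311 ± 74.0 (SD, n = 5) in old kidneys (log2 fold change -1.65, adjusted p = 6.29e-09). Pdss1, a subunit of the synthase for the ubiquinone tail, fell by 1.34 (adjusted p = 0.000922), and Rabggta, of the Rab prenyltransferase, fell to 142 ± 28.6 (SD, n = 5) from 280 ± 18.6 (SD, n = 4; adjusted p = 3.85e-06).

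Among 8 tested genes of 10 for efflux, storage and breakdown of cholesterol, 1 rose, 4 fell and 3 did not pass (62.5% called, near the 59.7% of all genes), with a median of -0.27. Apoe, the carrier of lipids in lipoproteins, rose by 1.21 (adjusted p = 1.09e-07 by limma), and the sterol hydroxylases Cyp27a1 and Cyp7b1 fell by 1.15 and 1.29 (adjusted p = 4.22e-07 and 2.53e-06). Nr1h3, the LXR alpha receptor for oxysterols, fell by 0.72 (adjusted p = 0.000595), and its target Abca1 had a value of -0.15 (adjusted p = 0.656).

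Of 13 tested genes of 14 for fatty acid synthesis, the other output of the SREBPs, 6 rose, 3 fell and 4 did not pass by limma (69.2% called, beside 59.7% of all genes), with a median of 0.08. With DESeq2 the rises were 4, and Scd1 and Fasn had no p-value there. Acaca, Scd1 and Fasn were by far the highest in old library 3, at 346, 8533 and 3575 normalised counts, while the other old libraries lay far lower. Of the 5 adipocyte markers in the table, Adipoq, Plin1 and Cidec were also highest in old library 3, at 189, 136 and 80.1, whereas Fabp4 and Cfd were highest in young library 2, at 897 and 447. Their sum spanned 271 to 1456 in young and 56.9 to 1114 in old libraries, and the part of these cells in the values of the fatty acid genes was not tested. The log2 fold changes were 1.71 for Acaca (adjusted p = 0.000158 by limma), 2.24 for Scd1 (adjusted p = 0.00114) and 1.16 for Fasn (adjusted p = 0.0437, lost under 9 alternatives). Without old library 3 they were 1.33, 1.54 and 0.52, still called. Fads2, a desaturase of polyunsaturated fatty acids, fell by 1.29 (adjusted p = 6.64e-08).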

How the data were processed

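Kidney RNA was sequenced as stranded single reads from transcript ends (oligo(dT) priming, QuantSeq 3′ FWD kit, for which labels and methods name different versions). The table deposited by the authors holds a signal, namely read counts per gene scaled by library. Per the study's methods and the submitters' processing notes, the authors aligned reads to GRCm39 with TopHat2 2.0.10, Bowtie 1.0.0 and SAMtools 0.1.19, counted them by strand with HTSeq 0.6.1 on GENCODE vM26 and divided them by DESeq size factors. In each library 100% of the values were whole multiples, within 0.02 reads, of the value of 1 read, from which whole reads were recovered. The lowest mean of any gene was 4.49 normalised counts, so a filter that the sources used here do not state preceded deposition. Depth limits counting error only, since reads carry no molecular identifiers.

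Genes that reached 10 normalised counts in 4 or more libraries were compared between old and young kidneys with limma 3.58.1 (trend, R 4.3.3). The scale was log2 of the normalised count plus 1, and p-values were adjusted over all genes tested by the Benjamini-Hochberg method. A gene was called at an adjusted p-value under 0.05. Folds were taken from the log2 fold changes, which carry the pseudocount of 1 and so understate the change of low genes. Ratios of members and shares of reads were compared with two-sided exact permutation tests (scipy 1.17.1). Libraries are numbered as listed, and nothing in the labels says that they are separate mice, so p-values measure the spread between these libraries. The labels give no sex and no batch.

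Alternatives were pseudocounts of 0.1 and 5, no filter, a minimum mean of 100 normalised counts, robust eBayes, TMM factors, the table total, mitochondrial genes left out and the rest rescaled, edgeR 4.0.16 and DESeq2 1.42.0 on the whole reads, and each library left out in turn. Leaving out young library 4 and old library 4 together was chosen after seeing the data. The shares of reads that set Hmgcs1 apart were not planned beforehand. The 7 genes and all lists (other enzymes, SREBP control, uptake and transport, efflux and storage, mevalonate branches, fatty acid synthesis, and cell type markers) were chosen with earlier results of these data known. Named were the members, all other enzymes, the 4 called genes of each further pathway list with the largest log2 fold change in either direction, 6 genes named whether called or not (Srebf1, Srebf2, Scap, Insig1, Fasn and Abca1), and the 5 genes most like the members with and without age means, among genes that averaged 50 or more normalised counts. Some genes of these lists are not reported here and enter no list count. Other genes named were chosen after their values were seen.

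Gene positions, overlaps and shared 50-base sequences came from GENCODE vM21 on GRCm38, and promoters from RefSeq on GRCm38.p6, neither being the build the authors used. Promoters of Fdps, Fdft1 and Sqle were not analysed here.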

Additional observations from a re-analysis of the deposited data

Results flagged for a closer look

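In 8 of 88 groups of libraries examined (the members, the genes named from the lists, and the members' summed share, in each age, but not the genes most like the members), 1 library lay far from the others of its age on the log2 scale, where chance gives about 4.4. No group of the 7 cholesterol synthesis genes was among them. Each gap below is the distance from that library to its nearest neighbour, divided by the whole range of the group.

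Among genes of the pathway, Lss in young library 2 was low at 22.3 normalised counts against 34.3 to 36.9 in the other young libraries (gap 0.856), and Dhcr7 in old library 5 was low at 41.4 against 50.7 to 53.7 (gap 0.775). Of its controls, Insig2 in young library 1 was low at 109 against 123 to 124 (gap 0.889), and Nr1h3 in old library 3 was low at 87.2 against 136 to 158 (gap 0.750). Npc2 in young library 2 was low at 811 against 881 to 890 (gap 0.893). Pdss1 in old library 5 was low at 7.43 against 20.8 to 29.8 (gap 0.732). Of the fatty acid genes, Acaca in old library 3 was high at 346 against 76.5 to 105 (gap 0.791) and Scd1 in the same library was high at 8533 against 554 to 1127 (gap 0.740).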

How the results depend on the processing

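The direction of each member held under every one of the 20 alternatives in which it was tested, and 134 of 138 member values kept their side of the threshold. The exceptions were Fdps at 0.51 without young replicate 3, Sqle at -0.35 with mitochondrial genes left out (where Fdft1, Cyp51 and Msmo1, not called, were -0.14, -0.11 and -0.11), and Msmo1 at -0.36 and -0.32 without young or old replicate 2, which passed. With 1 library left out at a time, the log2 fold change of Fdps lay between 0.48 and 0.62, that of Msmo1 between -0.36 and -0.20, that of Fdft1 between -0.37 and -0.16 and that of Cyp51 between -0.35 and -0.11, and 3 to 5 members were called. A minimum mean of 100 normalised counts called 4101 of 5655 genes tested (2040 higher, 2061 lower) since fewer genes were tested, and Fdps and Fdft1 were then not tested. Other enzymes called were 4 to 8 with 1 library left out and 4 without young and old replicate 4 together. The difference in the members' share of reads turned to 0.0035 percentage points without mitochondrial genes (exact p = 0.651). Of the 21 pairs, 0 to 14 passed with 1 library left out; the 0 arose without any 1 young library, where the smallest exact p is 0.0357 and too few pairs reached it to pass after adjustment.

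Of the genes named, 4 changed sign, none of them called under any alternative. With 1 library left out they spanned -0.50 to 0.071 (Abca1), -0.20 to 0.23 (Lss), -0.25 to 0.081 (Dhcr7) and -0.12 to 0.017 (Erg28). Lss was 0.025 with edgeR and 0.026 with DESeq2. Without mitochondrial genes the values were 0.092 (Lss), 0.054 (Dhcr7) and 0.087 (Erg28), and without young and old replicate 4 together 0.070 (Dhcr7) and 0.037 (Erg28). The call of Fasn was lost under 9 alternatives, with adjusted p-values up to 0.226, that of Pmvk under 5, Tm7sf2 under 4 and Nsdhl under 3, while Mvk gained a call under 4 and Lbr under 1. The cause was not tested. No paired analysis was possible because the labels carry no replicate numbers. Among the 20 enzymes the mean level was lowest for Tm7sf2 and Lss, and among the members for Fdps.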

Other observations

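Cell type markers bear on what the whole-kidney RNA held, and over all genes tested 29.2% were called higher and 30.5% lower in old kidneys. Of 10 proximal tubule markers, 4 rose, 4 fell and 2 did not pass by limma, and of 7 markers of the distal tubule and collecting duct 1 rose and 5 fell. Of 5 podocyte markers 3 rose and 1 fell, with a summed level of 685 to 753 normalised counts in young and 736 to 870 in old libraries. Of 5 thick limb markers 2 rose and 0 fell, of 5 endothelial markers 2 rose and 0 fell, and of 6 immune markers tested 4 rose and 0 fell. These counts of 0 were the same at an unadjusted p-value under 0.05 in limma and at an adjusted one in edgeR and DESeq2. Of 4 adipocyte markers tested 0 rose and 1 fell by limma, while 2 were higher at an unadjusted p-value under 0.05, 1 with edgeR and 0 with DESeq2.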
